A study of Mus musculus with 75 samples.

Results

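The contrast described here asks whether the transcript response of the mouse kidney to ureter obstruction differed with the *Pdgfb* genotype. Its members were all 16 of the 75 bulk RNA libraries of the series whose labels read PbWT or PbKO, 4 from each of 4 groups. The value for each gene was the change from contralateral (CL) to obstructed (UUO) kidneys in PbKO mice, minus the same change in PbWT mice, on a log2 scale. A positive value therefore means that the level in UUO relative to CL was higher in PbKO than in PbWT mice, and a negative value that it was lower.

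In unilateral ureter obstruction (UUO) one ureter was tied, and whole kidneys were taken on day 3 from adult mice of mixed background and both sexes. By the study's supplement the sexes were not balanced between genotypes in the *Pdgfb* experiment, with mostly females among the controls and more males than females among the knockouts, and the labels do not give the sex behind a library, so sex and genotype cannot be fully told apart. PbKO mice carried floxed *Pdgfb* alleles and the tamoxifen-inducible *Actb*-CreERT2 transgene, whose CAG promoter is active throughout the body, so the deletion was not aimed at 1 cell type. PbWT mice were littermates without Cre that carried 1 or 2 floxed alleles. Tamoxifen was given by gavage shortly before the experiment. By the study's methods 2 PbWT CL samples were lost, and this group includes kidneys of 2 sham-operated PbWT mice. PbWT CL values are therefore not all from contralateral kidneys. The labels do not mark the sham kidneys, and no label ties a CL kidney to the UUO kidney of the same animal. Nothing in the labels says more about how libraries of 1 group were related than that they are separate samples, so p-values measure the spread between these samples.

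PDGFB is a growth factor released by endothelial and injured epithelial cells and by platelets. It acts on the receptor PDGFRB of pericytes and fibroblasts, and the pairing is known for holding pericytes to capillaries and for driving fibroblasts to divide and lay down matrix. In an obstructed kidney, tubule cells lose their transport and metabolic programme, inflammatory cells enter, and interstitial fibroblasts become myofibroblasts. Because whole kidneys were sequenced, fewer cells of a type and less RNA per cell cannot be told apart in any value below.

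Libraries held 337545 to 2049326 counts, and the shallowest was PbKO UUO replicate 1. Levels are given in CPM, which are counts scaled to a common library total, with TMM factors that lay at 1.16 to 1.24 in PbWT UUO and at 0.87 to 1.03 in the other groups. All 4 PbKO UUO libraries held both *Xist*, the transcript of the inactive X chromosome of females, at 46.2 to 238 CPM, and transcripts of 4 genes on the Y chromosome (*Uty*, *Kdm5d*, *Ddx3y*, and *Eif2s3y*), at 88.8 to 113 CPM summed. Both marks reached 10 counts in 8 of the 16 libraries, which were these 4, PbWT UUO replicates 1 and 2, and PbWT CL replicates 3 and 4, and in 0 of the 4 PbKO CL libraries. A kidney of 1 mouse should hold 1 of the marks. What put both into these libraries was not tested, and no contrast can be formed without the PbKO UUO group, so results are also given without the 4 PbWT libraries that held both.

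**Figure D1:**
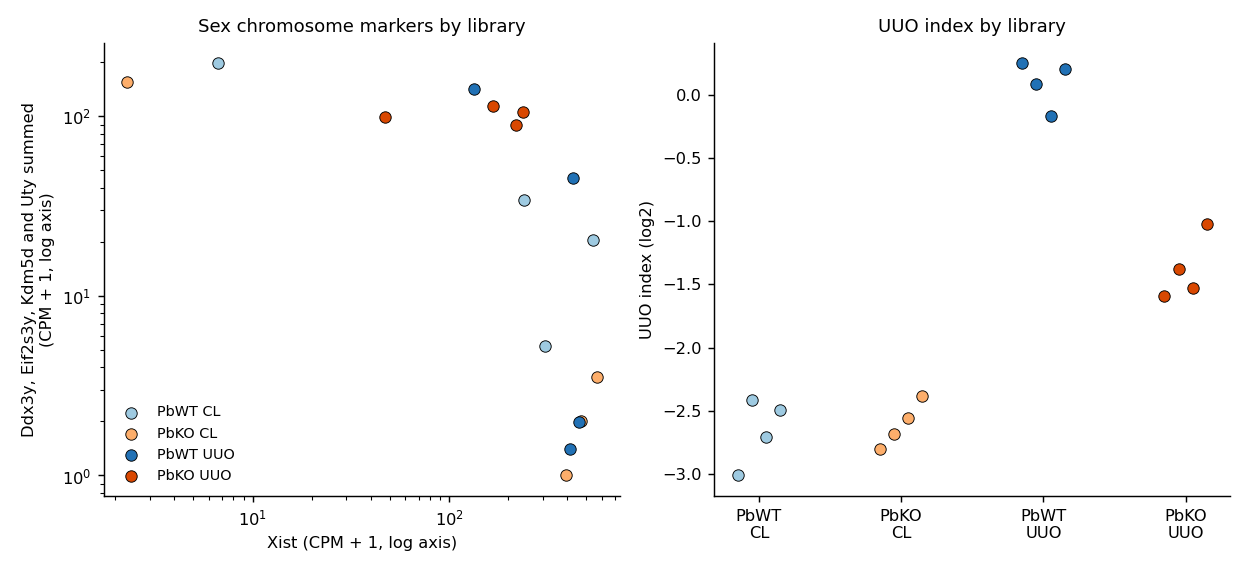
Left, *Xist* against the summed Y chromosome genes, both as CPM + 1 on log axes, 1 point per library; right, the UUO index of each library, defined as the mean log2 level of UUO-raised genes less the mean for UUO-lowered genes, both gene sets being taken from controls of the other arms. The 4 PbKO UUO libraries sit at 88.8 to 113 CPM of Y chromosome genes with *Xist* present, and their index lies between -1.60 and -1.03, apart from the PbWT UUO and from both CL groups.

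*Pdgfb* itself (chr15:79995874-80014977, minus strand, mm10) served as the check of the labels. Its level was 4.52, 9.95, 7.52, and 20.3 CPM in the PbWT CL libraries and 57.5, 55.2, 44.1, and 58.9 CPM in PbWT UUO. In the libraries labelled PbKO it was 16.9, 17.8, 25.4, and 17.3 CPM in CL and 34.0, 36.6, 39.2, and 41.4 CPM in UUO. All 4 PbKO UUO libraries lay below all 4 PbWT UUO libraries, whereas the CL groups overlapped and the CL difference, 0.78 ± 0.33 (log2, PbKO minus PbWT, ± SE), did not have the sign of a deletion (adjusted p = 1). The table gives 1 count per gene, so reads from parts of *Pdgfb* outside the deleted segment cannot be told apart from reads of an intact transcript, and the text speaks of libraries labelled PbKO for this reason.

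*Pdgfb* rose with UUO by 2.28 ± 0.26 in PbWT and by 1.03 ± 0.27 in PbKO, and the interaction, -1.26 ± 0.39, passed the test of edgeR's quasi-likelihood fit (n = 4 libraries per group, Benjamini-Hochberg adjusted p = 0.0461 over 10923 genes). The difference between genotypes within UUO kidneys, -0.47 ± 0.21, did not pass (adjusted p = 0.125). *Pdgfrb*, the receptor, stood at 12.4, 22.7, 19.5, and 23.5 CPM in PbWT CL and at 55.6, 57.7, 57.0, and 68.9 CPM in PbWT UUO. In PbKO it stood at 23.5, 15.3, 25.4, and 28.5 CPM in CL and at 30.6, 21.7, 21.8, and 45.4 CPM in UUO. The PbKO UUO libraries overlapped their own CL kidneys and lay below every PbWT UUO library, and the interaction was -1.27 ± 0.36 (adjusted p = 0.0275). *Nrp1*, a co-receptor for several growth factors, differed by -0.63 ± 0.20 (adjusted p = 0.0465).

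Of the 7 PDGF ligands, receptors, and *Nrp1*, 3 passed on the lower side and 0 on the higher side, against 1.9% lower and 6.66% higher of all genes tested. The other ligands and *Pdgfra* did not pass: *Pdgfa* -1.01 ± 0.37 (adjusted p = 0.0952), *Pdgfra* -0.63 ± 0.42 (0.413), *Pdgfc* 0.59 ± 0.37 (0.386), and *Pdgfd* 0.34 ± 0.39 (0.675). *Pdgfb* passed in 11 of 31 alternative settings, *Nrp1* in 11, and *Pdgfrb* in 21, with the sign kept in every one. Leaving out 1 library left 0 to 3 of these calls, with 0 left without PbWT CL replicate 1, PbKO CL replicate 4, PbWT UUO replicate 4, or PbKO UUO replicate 2 or 3.

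Across the transcriptome the response to UUO was smaller in the libraries labelled PbKO, in both directions. Of 10923 genes tested, 935 (8.56%) passed in the interaction, 728 of them (6.66%) higher and 207 (1.9%) lower. With a log2 difference of at least 1 as well, 502 (4.6%) passed, 362 higher (3.31%) and 140 lower (1.28%). Within PbWT, 4075 genes (37.3%) changed with UUO, 1956 up (17.9%) and 2119 down (19.4%), and within PbKO 694 (6.35%) changed, 430 up (3.94%) and 264 down (2.42%). Between genotypes 2034 genes (18.6%) differed in UUO kidneys, 1315 of them higher in PbKO (12%) and 719 lower (6.58%), and 0 in CL kidneys, where edgeR's unadjusted p was under 0.05 for 378 and DESeq2 called 0 with 234 under 0.05. Over all tested genes the fitted slope of the PbKO response on the PbWT response was 0.42, with a Pearson's r of 0.67 and a Spearman's rho of 0.55. This is a description across genes of 2 responses with separate libraries, and genes are not independent replicates.

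The 728 genes of the higher side were mainly genes that fell with UUO in PbWT and fell less, or not, in PbKO. Of these, 611 fell in PbWT and passed in neither direction in PbKO, 107 fell in both, and the median response was -1.26 in PbWT and -0.25 in PbKO. In 663 of the 728 the PbKO UUO libraries all lay above the PbWT UUO libraries, where 12.7% of all tested genes did so. *Bri3* was the 1 gene that fell in PbWT (-0.40) and rose in PbKO (0.54), with 58.3, 51.7, 61.9, and 62.0 CPM in PbWT UUO against 100.3 to 119 CPM in PbKO UUO. *Rps27l*, *Cul2*, and *Ctxn3* rose only by the test in PbKO; these 4 genes were picked out for that pattern.

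The 207 genes of the lower side were mainly genes that rose in PbWT: 151 rose there and passed in neither direction in PbKO, and 29 rose in both. Their median response was 1.14 in PbWT and -0.03 in PbKO. The interaction is the UUO difference minus the CL difference (each PbKO minus PbWT), so a gene picked by it tends to have a CL difference of the opposite sign. The median CL difference was 0.37 on the lower side and -0.09 on the higher, given as a description, and none passed on its own. In 172 of the 207 the PbKO UUO libraries all lay below the PbWT UUO libraries, as they did for 9.58% of all tested genes. *Ncoa3*, *Nfia*, *Flt1*, *Glce*, *Tcf20*, *Nrip1*, and *Kank1* were the 7 that fell in PbKO and passed in neither direction in PbWT, named for that pattern. Genes of the higher side had a median level of 184 CPM and those of the lower side 41.9 CPM.

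**Figure D2:**
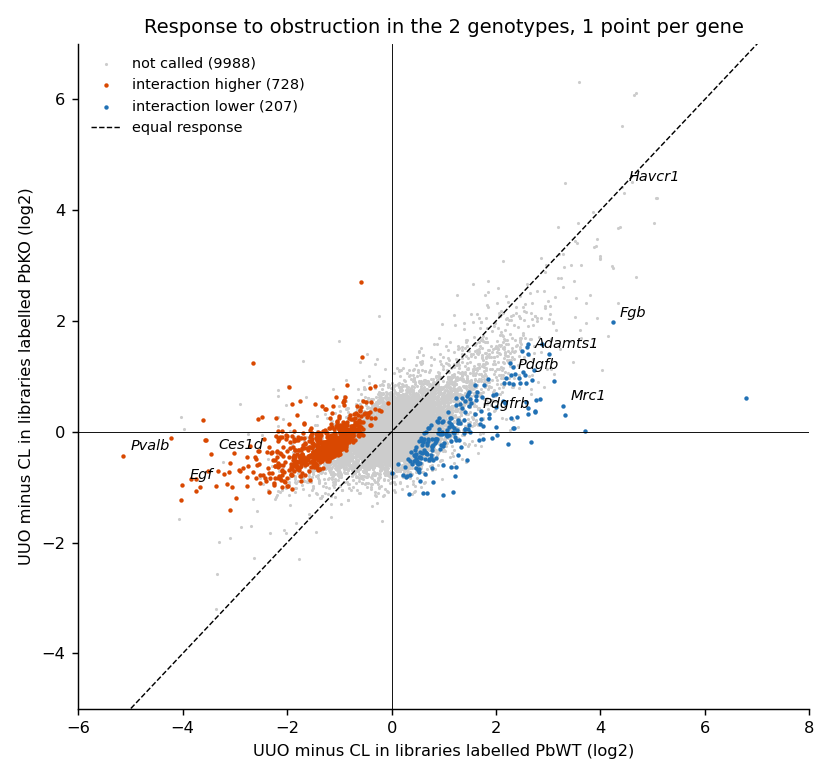
Response to UUO (log2, UUO minus CL) of each of the 10923 tested genes in PbWT (horizontal axis) and PbKO (vertical axis) libraries, with the genes that passed in the interaction coloured. The 728 higher genes (orange) lie left of 0 and above the dashed line of equal response, and the 207 lower genes (blue) lie below that line and, but for *Kank1* at about 0, right of 0; the blue point farthest right is *Egr2*, whose place depends on the prior count because no PbWT CL library held a read of it.

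The split between the sides of the genotype-by-obstruction interaction depended on the scaling. Without TMM factors 980 genes passed (312 higher, 668 lower). The median value over all tested genes then shifted from -0.00 to -0.29, so changes below are relative to that median. The count itself was 283 without the 4 PbWT libraries that held both sex marks, 188 with all libraries thinned to the shallowest, and 10, all higher, in 1 fit over the 12 groups of the series. Every one of the 65 named genes that passed kept its sign in each alternative that gave it a value.

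Genes chosen for their response to UUO in other mice also changed less in the libraries labelled PbKO. In both other arms, 796 genes went up and 790 went down upon UUO among control mice, a choice that used none of the 16 libraries compared here. Of the 790 that fell, 401 (50.8%) passed on the higher side and 0 on the lower, with medians of -1.13 in PbWT and -0.34 in PbKO. Of the 793 tested that rose, 99 (12.5%) passed on the lower side and 0 on the higher, with medians of 1.35 in PbWT and 0.70 in PbKO. Of all genes tested, 6.66% passed on the higher side and 1.9% on the lower, so the 2 shares have unequal backgrounds and are not compared with each other.

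*Calb1*, the calcium-binding protein of the distal convoluted tubule, fell from 599, 732, 619, and 662 CPM in PbWT CL to 34.5, 31.6, 69.5, and 43.9 CPM in PbWT UUO. In PbKO it went from 711, 642, 888, and 695 CPM to 361, 312, 386, and 557 CPM, so that every PbKO UUO library lay above every PbWT UUO library and below every PbKO CL library. The interaction was 2.98 ± 0.28 (adjusted p = 3.24e-07). *Egf*, the growth factor made by the thick limb and distal tubule, stood at 1161 to 1640.3 CPM in the 8 CL libraries, at 40.9, 66.8, 149, and 106 CPM in PbWT UUO and at 796, 671, 905, and 572 CPM in PbKO UUO (3.06 ± 0.34, adjusted p = 3.87e-06).

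*Pvalb*, parvalbumin of the early distal tubule, was nearly lost in PbWT UUO, at 1.28, 0.607, 0.404, and 3.00 CPM, and remained at 20.4, 18.3, 30.5, and 93.2 CPM in PbKO UUO. Its CL levels were 32.8 to 49.7 CPM in PbWT and 33.1 to 71.7 CPM in PbKO, and the interaction was 4.71 ± 0.70 (adjusted p = 0.000126). *S100g* (2.82 ± 0.31), a calcium-binding protein, and *Klk1* (2.90 ± 0.36), the tissue kallikrein of the connecting tubule, passed as well. Of 22 loop, distal, and collecting duct markers, 8 passed on the higher side and 0 on the lower, where 6.66% and 1.9% of all genes did, and 14 did not pass. The median interaction of the list was 0.52. Beside *Calb1*, *Egf*, and *Pvalb* these were the transporters *Slc12a3*, *Slc26a4*, and *Slc12a1*, the water channel *Aqp3*, and the proton pump subunit *Atp6v1g3*, with values of 0.97 to 1.41. The collecting duct genes *Aqp2* (0.06, adjusted p = 0.96) and *Fxyd4* (0.03, adjusted p = 0.975) did not pass.

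Among proximal tubule markers, 17 of 26 passed on the higher side and 1 on the lower, against 6.66% and 1.9% of all genes tested, with a median interaction of 1.2 and median responses of -1.72 in PbWT and -0.52 in PbKO. *Kl*, the phosphate-regulating co-receptor klotho, stood at 116, 113, 125, and 119.8 CPM in PbWT UUO and at 388, 338, 380.4, and 239 CPM in PbKO UUO. The CL libraries held 405 to 562 CPM of it, so all UUO libraries were lower than all CL libraries in both genotypes, by unequal amounts (1.53 ± 0.20, adjusted p = 3.78e-05). *Miox*, the enzyme that opens the inositol ring, went to 228 to 313 CPM in PbWT UUO and 854 to 1153 CPM in PbKO UUO (1.95 ± 0.27), and *Ass1*, of arginine synthesis, differed by 1.75 ± 0.26.

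*G6pc*, the last step of glucose release, and *Ces1d*, a carboxylesterase, both fell with UUO in PbWT, and by the test only *G6pc* did in PbKO. *G6pc* stood at 219 to 307 CPM in the CL libraries, at 17.3, 30.3, 33.2, and 29.0 CPM in PbWT UUO and at 218, 122, 129, and 147 CPM in PbKO UUO (2.62 ± 0.25, adjusted p = 3.24e-07). *Ces1d* stood at 39.0, 34.6, 53.8, and 25.0 CPM in PbWT UUO against 323, 304, 314, and 204 CPM in PbKO UUO, where the levels overlapped those of PbKO CL (3.04 ± 0.25, adjusted p = 6.27e-08). Both passed in each of the 31 alternative settings, and *Ces1d* belongs to a family of close copies whose reads the counting could share.

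*Khk* (1.52 ± 0.19), which starts fructose breakdown, *Haao* (1.76 ± 0.21), of tryptophan breakdown, *Mep1b* (2.11 ± 0.20), a brush border protease, and *Ttr* (3.43 ± 0.38), the thyroid hormone carrier, were among the 12 higher genes of lowest p. So were *Nat8f1* (1.96 ± 0.21) and *Tprkb* (1.72 ± 0.21), which overlap on opposite strands over 478 exonic bases, and reads of the 2 cannot be told apart there. The 1 proximal marker on the lower side was *Slc13a1*, the sulfate transporter. It rose in PbWT, from 332 to 416 CPM in CL to 732 to 922 CPM in UUO, and stood at 361 to 668 CPM in PbKO CL and 488 to 713 CPM in PbKO UUO (-0.91 ± 0.25, adjusted p = 0.0219).

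**Figure D3:**
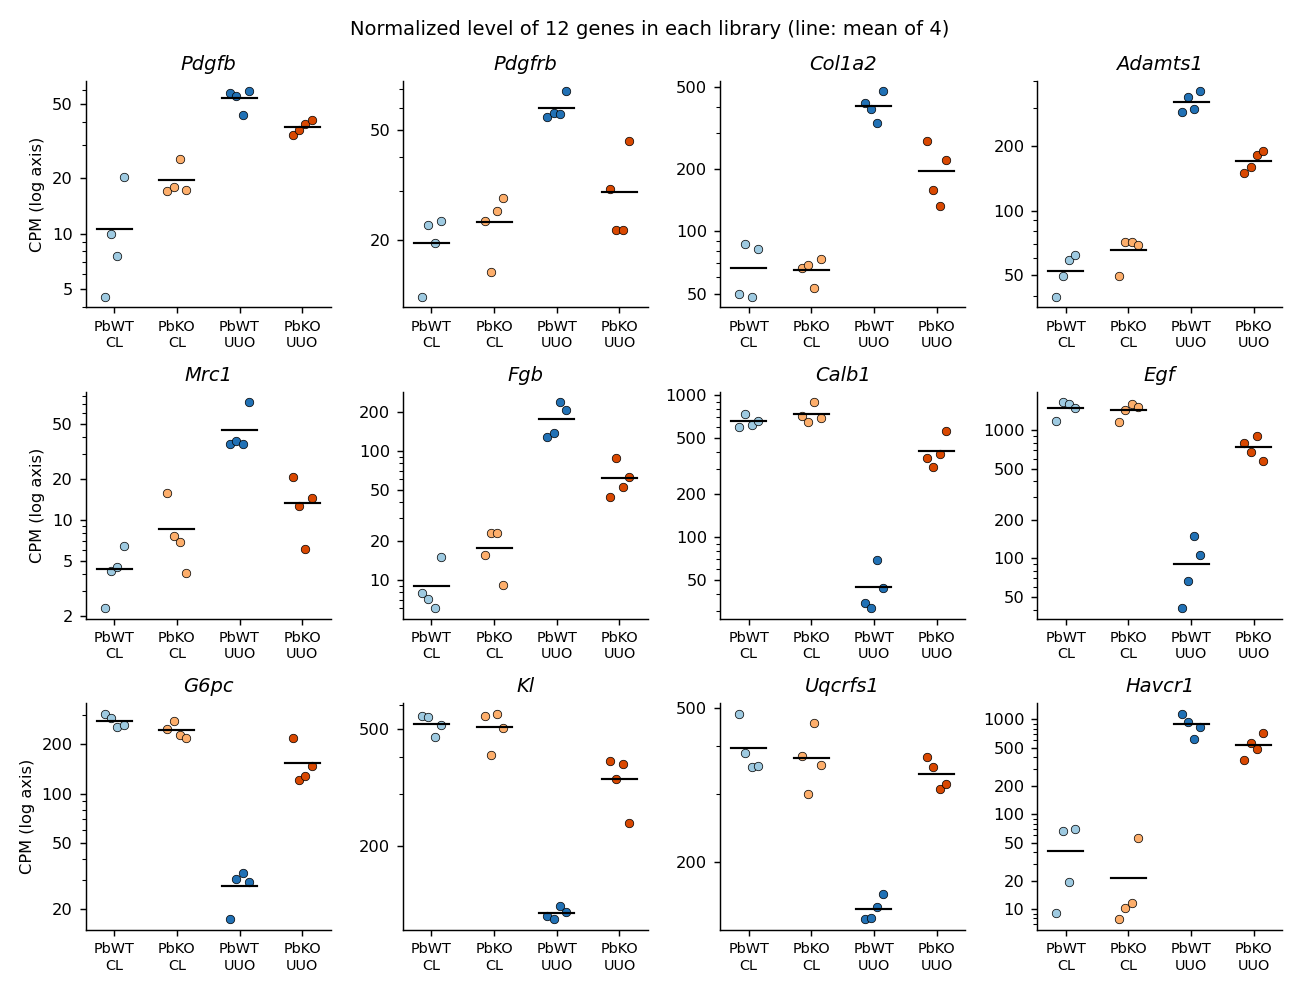
CPM (log axis) of 12 genes in each of the 16 libraries, with the mean of the 4 libraries of a group as a line. The PbKO UUO points of *Calb1*, *Egf*, *G6pc*, *Kl*, and *Uqcrfs1* lie between the PbWT UUO and CL points or at the CL level, those of *Pdgfb*, *Pdgfrb*, *Col1a2*, *Adamts1*, *Mrc1*, and *Fgb* lie below PbWT UUO, and those of *Havcr1* overlap PbWT UUO.

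*Hnf4a*, the transcription factor that maintains the proximal programme, did not pass itself (0.65 ± 0.21, adjusted p = 0.055). Promoter windows of RefSeq (GRCm38.p6, the build of mm10), which run from 250 bases before to 50 after a gene's start, were searched on both strands for the HNF4-type motif CAAAGTCCA, and 156 of 32851 windows (0.475%) held it. Only 568 of the 728 higher genes had a window, under the 80% needed, so the comparison of shares between called and other genes is void and none is given. Windows of 3 higher genes that held the motif, chosen after their values were seen, are shown because they place the motif beside the start of proximal tubule genes that fell with UUO in PbWT and less, or not by the test, in PbKO. Capitals mark the motif.
*Pdzk1* (chr3:96829815-96830114, plus strand): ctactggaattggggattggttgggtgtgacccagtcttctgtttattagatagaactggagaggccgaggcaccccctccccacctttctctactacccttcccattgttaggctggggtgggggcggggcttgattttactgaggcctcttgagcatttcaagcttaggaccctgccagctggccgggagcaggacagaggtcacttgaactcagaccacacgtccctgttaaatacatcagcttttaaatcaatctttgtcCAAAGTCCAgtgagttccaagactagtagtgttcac
*Slc3a1* (chr17:85028097-85028396, plus strand): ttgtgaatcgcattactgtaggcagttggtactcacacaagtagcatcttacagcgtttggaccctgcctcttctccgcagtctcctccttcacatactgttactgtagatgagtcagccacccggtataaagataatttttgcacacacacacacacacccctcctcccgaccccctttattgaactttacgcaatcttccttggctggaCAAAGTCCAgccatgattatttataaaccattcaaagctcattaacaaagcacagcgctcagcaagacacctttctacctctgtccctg
*Pipox* (chr11:77893823-77894122, minus strand): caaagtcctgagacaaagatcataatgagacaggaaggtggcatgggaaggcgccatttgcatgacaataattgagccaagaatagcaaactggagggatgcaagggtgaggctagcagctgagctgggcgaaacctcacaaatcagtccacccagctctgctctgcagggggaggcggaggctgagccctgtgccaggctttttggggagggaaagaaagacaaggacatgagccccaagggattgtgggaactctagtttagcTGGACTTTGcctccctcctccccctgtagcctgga

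The motif began 14 bases after the start of *Pdzk1*, 39 before that of *Slc3a1*, and 15 after that of *Pipox*, on the reverse strand in the last. *Pdzk1*, a scaffold of brush border transporters, stood at 455, 495, 554, and 470.3 CPM in PbWT UUO and at 990.1, 918, 967, and 756 CPM in PbKO UUO, with 1256 to 1519 CPM in the CL libraries (0.91 ± 0.18, adjusted p = 0.00206). *Slc3a1*, the heavy chain of the cystine transporter, differed by 0.63 ± 0.18 (adjusted p = 0.0285), and *Pipox*, a peroxisomal oxidase, by 0.97 ± 0.24 (adjusted p = 0.0107). A match is a description of the sequence and was not tested as a site.

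Genes of oxidative metabolism moved together. Of 49 nuclear genes of the respiratory chain, 48 passed on the higher side and 0 on the lower by edgeR (49 higher by DESeq2), where 6.66% and 1.9% of all genes did, and the values of all 49 lay between 0.59 and 1.24. All 49 fell with UUO in PbWT and 8 did in PbKO, where 19.4% and 2.42% of all genes did. The median responses of the 49 were -1.19 in PbWT and -0.31 in PbKO. *Uqcrfs1*, the iron-sulfur protein of complex III, stood at 142, 143, 153, and 165 CPM in PbWT UUO and at 374, 352, 309, and 318 CPM in PbKO UUO. The CL libraries held 301 to 485 CPM, which the PbKO UUO libraries overlapped (1.24 ± 0.19, adjusted p = 0.000253). *Ndufb5*, of complex I, stood at 193 to 236 CPM in PbWT UUO and at 383 to 449 CPM in PbKO UUO (1.05 ± 0.16).

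The respiratory chain count was 28 without TMM factors, 13 without the 4 PbWT libraries that held both sex marks, 16 after thinning, 31 of 48 with the trend on transcript length removed, and 0 in the fit over 12 groups, with the median above 0 in each of these. Of 13 genes encoded in mitochondrial DNA, 11 passed on the higher side, against 6.66% of all genes, led by *mt-Nd3* at 726, 571, 448, and 495 CPM in PbWT UUO and 1946, 1161, 1285, and 1162 CPM in PbKO UUO (1.27 ± 0.27, adjusted p = 0.00362). With the length trend removed 0 of the 13 passed, at a median of 0.78, and without PbWT UUO replicate 4 or PbKO UUO replicate 1 the count was 7. The share of counts in mitochondrial genes was 1.23% to 1.80% in PbWT UUO, 1.94% to 3.61% in PbKO UUO, and 2.83% to 4.11% in CL libraries.

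Fatty acid oxidation and peroxisome genes followed, with 12 of 28 on the higher side (6.66% of all genes), 0 on the lower, and a median of 0.61. *Ehhadh*, a peroxisomal enzyme of this pathway, stood at 162, 178, 189, and 139.8 CPM in PbWT UUO and at 479.7, 439.8, 429, and 329.6 CPM in PbKO UUO, against 546 to 698 CPM in CL kidneys (1.30 ± 0.19, adjusted p = 0.000152). *Cat*, catalase, stood at 238 to 266 CPM in PbWT UUO and at 357 to 721 CPM in PbKO UUO, overlapping PbKO CL (1.28 ± 0.22). Of 17 sterol synthesis genes only *Cyp51* passed (0.91 ± 0.25, adjusted p = 0.0245). That count of 1 is near the 6.66% of all genes, and with 1 library left out it was 0 to 4, being 0 without PbWT CL replicate 3, PbKO CL replicate 3 or 4, or PbKO UUO replicate 4, and 4 without PbKO CL replicate 1. *Lpl*, lipoprotein lipase and the 1 of 6 tested fat markers to pass, differed by 1.13 ± 0.26.

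Of the 14 genes of the study's matrix panel, 5 passed on the lower side and 0 on the higher, against 1.9% and 6.66% of all genes tested, and all 14 values were negative, with a median of -0.94. The study shows this panel for these samples, and how its genes were chosen is not stated, so its direction is not taken as independent evidence. The count was 2 without PbKO CL replicate 4, PbWT UUO replicate 4, or PbKO UUO replicate 3, and 1 without the 4 PbWT libraries that held both sex marks. *Adamts1*, a secreted metalloproteinase, stood at 39.5, 49.7, 58.6, and 61.9 CPM in PbWT CL and at 286, 337, 298, and 359 CPM in PbWT UUO. In PbKO it went from 49.5, 71.4, 71.6, and 69.1 CPM to 149.7, 159.9, 182, and 189 CPM, above CL and below every PbWT UUO library (-1.20 ± 0.22, adjusted p = 0.0012). It lost its call in 1 alternative of 31, the fit over 12 groups.

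*Col1a2*, a chain of collagen I, stood at 416, 390.3, 333, and 474 CPM in PbWT UUO and at 272, 158, 133, and 221 CPM in PbKO UUO, with 48.1 to 86.7 CPM in the CL libraries (-1.06 ± 0.30, adjusted p = 0.0249). *Fn1*, fibronectin, stood at 165 to 255 CPM in PbWT UUO and at 71.4 to 111 CPM in PbKO UUO (-1.04 ± 0.32, adjusted p = 0.0443). Both still rose with UUO in PbKO, by 1.53 and 1.23. Other panel genes had values that did not pass, among them *Col1a1* at -0.45 (adjusted p = 0.733), *Col3a1* at -0.90 (0.207), and *Acta2*, the smooth muscle actin of myofibroblasts, at -1.02 (0.169).

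Of 14 collagens and laminins of the basement membrane, 5 passed on the lower side (1.9% of all genes) and 0 on the higher. They were *Col4a1* (-0.91 ± 0.21), *Col4a2* (-0.91 ± 0.26), *Lama5* (-0.96 ± 0.27), *Col18a1* (-0.75 ± 0.24), and *Nid1* (-1.02 ± 0.32). *Col4a1* stood at 299, 316, 282, and 373 CPM in PbWT UUO and at 197, 159.9, 158, and 209 CPM in PbKO UUO, with no overlap. The count of 5 went down to 2 without PbWT CL replicate 3, PbKO CL replicate 2 or 4, PbWT UUO replicate 4, or PbKO UUO replicate 2. The chains of the glomerular membrane *Col4a3* (0.36, adjusted p = 0.523) and *Col4a4* (0.11, adjusted p = 0.837) did not pass. Of 19 pericyte, fibroblast, and myofibroblast markers, *Cald1* (-0.85 ± 0.22) and *Mcam* (-1.64 ± 0.51) passed on the lower side, against 1.9% of all genes, and 17 did not pass. *Mcam* lost its call in 11 of 16 fits that left out 1 library, with an adjusted p of up to 0.159. The summed level of the list was 1599 to 2235 CPM in PbWT UUO, 851 to 1334 CPM in PbKO UUO, and 487 to 839 CPM in CL kidneys.

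*Fgb*, the fibrinogen beta chain that injured tubules make, was also on the lower side. It stood at 129, 138, 237, and 207 CPM in PbWT UUO and at 44.2, 88.0, 52.2, and 62.9 CPM in PbKO UUO, with 6.01 to 23.1 CPM in CL kidneys (-2.26 ± 0.47, adjusted p = 0.00314). *Rnase4*, a secreted ribonuclease, rose in PbWT only by the test, and its PbKO CL libraries, at 61.2, 20.4, 41.6, and 20.3 CPM, all lay above PbWT CL at 11.7 to 16.5 CPM. Its interaction of -2.03 ± 0.41 therefore held a CL part of 1.38 and a UUO part of -0.65. Its exons overlap those of *Ang* on the same strand over 219 bases, where reads cannot be told apart. *Ahnak* (-1.44 ± 0.27), *Plec* (-1.50 ± 0.31), and *Syne2* (-1.03 ± 0.20), large scaffold proteins of the membrane, cytoskeleton, and nuclear envelope, and *Thbs1* (-1.36 ± 0.35), a matricellular protein, were also on this side. The other lower genes among the 12 of lowest p at a mean of at least 10 CPM were *Atp2b1* (-1.05 ± 0.19), a calcium pump, *Cd2ap* (-1.06 ± 0.21), an adaptor of the actin cytoskeleton, *Sesn3* (-1.12 ± 0.23), a stress-induced sestrin, *Sema5a* (-1.39 ± 0.27), a guidance molecule, *Pik3r1* (-1.01 ± 0.21), the regulatory subunit of PI 3-kinase, and *Sec24b* (-1.17 ± 0.25), of vesicle coats. These 6 kept their call without any 1 library, but none did in all 31 alternative settings. *Sec24b* and *Pik3r1* passed in 28 of them and *Atp2b1* in 30. Among the lower genes of this paragraph only *Fgb* (3810 bases) and *Rnase4* (1637) had exons shorter than the median of 4507 over all genes tested. *Syne2* reached 26726 bases, and length is taken up below.

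Immediate-early and stress transcription factors passed in 4 of 13 on the lower side, against 1.9% of all genes, and 0 on the higher, with a median of -1.07. *Klf6* stood at 219.9, 255, 216, and 245 CPM in PbWT UUO and at 122, 187, 158, and 159 CPM in PbKO UUO (-1.04 ± 0.23). Its PbKO CL libraries, at 53.2 to 64.0 CPM, all lay above PbWT CL at 28.2 to 51.2 CPM, so the interaction held a CL part of 0.49 and a UUO part of -0.55. *Jun* stood at 52.6 to 77.1 CPM in PbWT UUO and at 28.7 to 44.2 CPM in PbKO UUO (-1.36 ± 0.36), with a CL part of 0.57 and overlapping CL libraries. *Egr2* had 0 counts over the 4 PbWT CL libraries and stood at 12.1, 15.2, 12.1, and 16.0 CPM in PbWT UUO, at least 14.7-fold higher against a floor of 3 counts over the group. In PbKO it stood at 0 to 4.62 CPM in CL and 1.14 to 6.37 CPM in UUO, which overlapped. *Fosl2* (-1.58 ± 0.46) was the other one.

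In the macrophage list 1 of 16 genes passed on the lower side, where 1.9% of all genes did. *Mrc1*, the mannose receptor of tissue macrophages, stood at 35.8, 37.6, 35.6, and 71.9 CPM in PbWT UUO and at 20.4, 12.6, 6.09, and 14.3 CPM in PbKO UUO. The CL levels were 2.26 to 6.4 CPM in PbWT and 4.07 to 15.6 CPM in PbKO, so that PbKO UUO overlapped its own CL kidneys (-2.82 ± 0.66, adjusted p = 0.00754). DESeq2 gave it no adjusted p, and without PbKO CL replicate 1 it did not pass. All 16 macrophage genes rose with UUO in PbWT and 10 did in PbKO, where 17.9% and 3.94% of all genes did. Their summed level was 1199 to 1850 CPM in PbWT UUO, 867 to 1022 CPM in PbKO UUO, and 263 to 586 CPM in CL kidneys. None of 14 markers of lymphocytes and neutrophils reached the level for testing.

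Of the 10 genes of the study's endothelial panel, to which the same limit applies, *Flt1* and *Ptprb* passed on the lower side and 0 on the higher, where 1.9% and 6.66% of all genes did. *Flt1*, a VEGF receptor, stood at 42.6 to 45.9 CPM in PbWT CL and 40.3 to 58.9 CPM in PbWT UUO. In PbKO it went from 58.6, 48.4, 67.0, and 52.9 CPM to 34.0, 26.3, 38.3, and 32.6 CPM, below every other library (-1 ± 0.25, adjusted p = 0.0106). *Ptprb*, which encodes the phosphatase VEPTP of endothelial junctions, differed by -1.12 ± 0.28, with PbKO CL above PbWT CL in all 4 libraries. Its interaction held a CL part of 0.64 and a UUO part of -0.48. The UUO part did not pass by edgeR (adjusted p = 0.0757), and the UUO libraries of the genotypes overlapped. With the length trend removed neither *Flt1* nor *Ptprb* passed, nor with the Y chromosome genes as a covariate, and over the alternatives the adjusted p of *Ptprb* reached 0.502. *Klf4* (-1.54 ± 0.42) passed in the inflammation panel beside *Mrc1*.

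Of the 8 genes in the study's injury panel, 7 had a negative interaction, the median was -0.43, and 6 did not pass. *Havcr1*, the tubular injury marker KIM-1, stood at 1150.2, 944, 625, and 841 CPM in PbWT UUO and at 371, 562, 490.1, and 723 CPM in PbKO UUO. CL levels ranged from 7.82 to 70.4 CPM, and the interaction was 0.01 ± 0.53 (adjusted p = 0.994), so the error is too wide to show that the responses were alike. *Lcn2*, the iron-binding lipocalin, had 206 to 258 CPM in PbWT UUO and 112 to 151 CPM in PbKO UUO, with an interaction of -0.07 ± 0.70. *Havcr1* and *Lcn2* were chosen from the panel after their values were seen, and they lie near 0 where most of its members are lower.

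Of 21 markers of injured tubules, 20 rose with UUO in PbWT and 18 in PbKO, where 17.9% and 3.94% of all genes did. *Sox4* (-1.30 ± 0.35) and *Cp* (-1.03 ± 0.30) passed in the interaction on the lower side, where 1.9% of all genes did (8.56% in either direction). *Cp* did not pass in 11 of 16 fits that left out 1 library (adjusted p up to 0.109). *Sox4*, a transcription factor of regenerating epithelium, stood at 72.3, 99.5, 77.2, and 107 CPM in PbWT UUO and at 54.4, 56.0, 42.7, and 36.6 CPM in PbKO UUO. Of 12 chemokines and cytokines 11 rose in PbWT and 10 in PbKO, again against 17.9% and 3.94% of all genes. In the interaction 0 of the 12 passed, among them *C3* at -0.85 ± 0.38 (adjusted p = 0.182). By edgeR's test 0 of 15 interferon-stimulated genes, 0 of 40 cytosolic ribosomal protein genes, and 0 of 8 podocyte markers passed, and 0 in the short lists of renin-angiotensin, red blood cell, smooth muscle, female-high, sex chromosome, and RNA composition genes. Over these 10 lists of 102 tested members, 9 had an unadjusted p under 0.05, and DESeq2 called 2, both in the RNA composition list. In the other lists, *Thbs1* of 13 TGF-beta and YAP targets, *Top2a* (-1.27 ± 0.40) of 21 cell cycle genes, *Piezo1* (-0.98 ± 0.27) and *Pdgfb* of 8 genes in the study's injury panel, *Hspe1* (0.81 ± 0.17) of 19 chaperones, and *Gpx3* (0.95 ± 0.28) of 10 NRF2 targets passed. Of all genes 1.9% passed on the lower side, that of *Thbs1*, *Top2a*, *Piezo1*, and *Pdgfb*, and 6.66% on the higher, that of *Hspe1* and *Gpx3*, so with 1 or 2 calls each nothing is read from these lists. With 1 library left out, *Top2a* lost its call in 10 of 16 fits, *Gpx3* in 9, *Pdgfb* in 12, *Piezo1* in 2, *Thbs1* in 1, and *Hspe1* in 0.

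**Figure D4:**
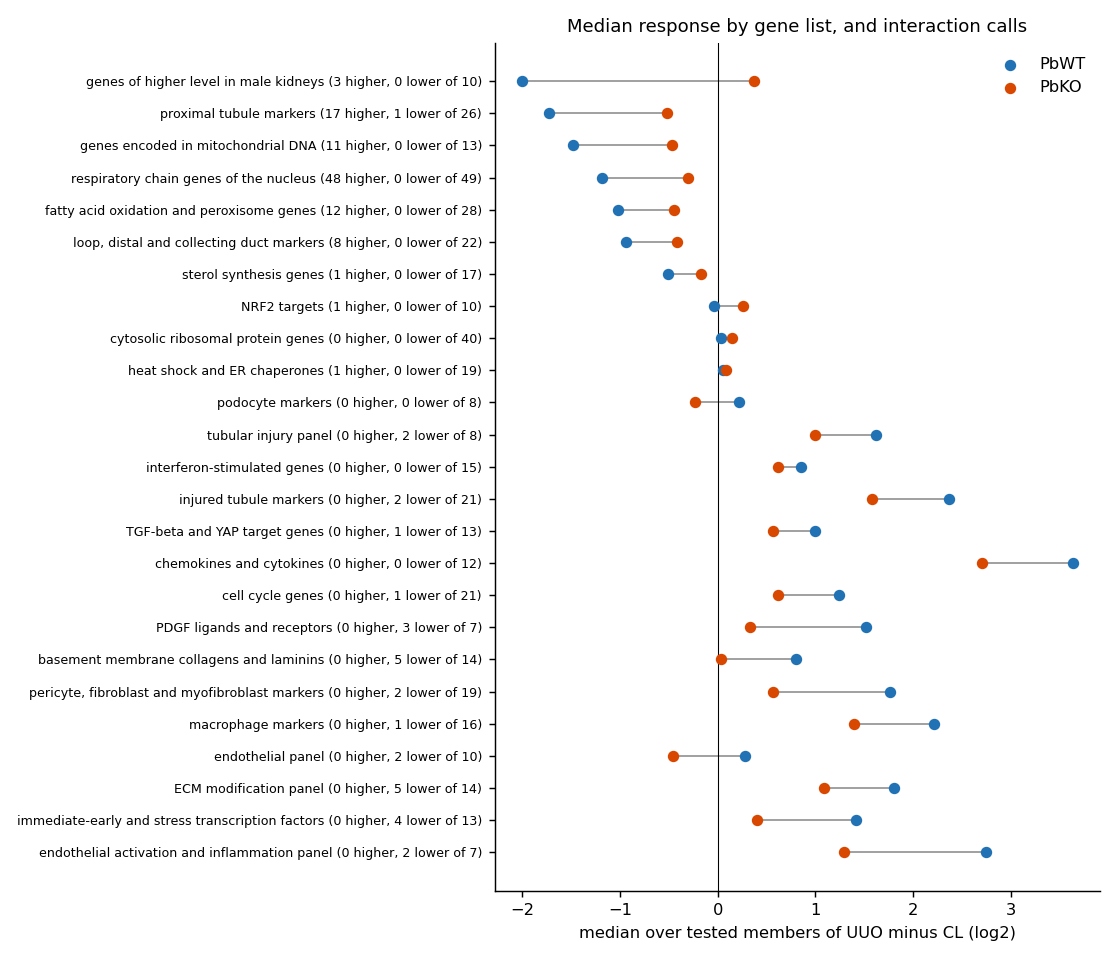
Median response to UUO (log2, UUO minus CL) over the tested members of the larger gene lists in PbWT (blue) and PbKO (orange) libraries, with the numbers of members that passed in the interaction. Proximal tubule, loop and distal, respiratory chain, mitochondrial DNA, fatty acid, and sterol lists lie left of 0 with PbWT lower, such as the proximal tubule markers at -1.72 and -0.52. Matrix, tubular injury, immediate-early, macrophage, and chemokine lists lie right of 0 with PbWT higher, while chaperones lie at 0.06 in PbWT and 0.08 in PbKO. Without TMM factors the median interaction changed sign in the ribosomal, chaperone, and NRF2 lists. It also did so in the red blood cell, renin-angiotensin, and female-high lists, which are not shown.

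Of 10 genes that are higher in male than in female kidneys, 3 passed on the higher side and 0 on the lower, where 6.66% and 1.9% of all genes did, with a median of 2.31. Leaving out 1 library gave counts of 3 to 9, the 9 without PbKO CL replicate 1. *Kap*, an androgen-regulated kidney protein, stood at 3152, 2733, 1491, and 1393 CPM in PbWT UUO and at 17413, 6894, 6893, and 4944 CPM in PbKO UUO, with 7182 to 10793 CPM in the CL libraries (2.03 ± 0.43, adjusted p = 0.00348). *Odc1*, of polyamine synthesis, differed by 1.82 ± 0.35 and *Nudt19* by 1.38 ± 0.29. Within PbKO UUO, replicate 1 had the highest *Kap* and the highest *Xist* (238 CPM), and replicate 4 the lowest of both. With *Xist* and the Y chromosome genes as covariates the value of *Kap* was 1.33 ± 0.43 (adjusted p = 0.0569), and 782 genes passed, 664 higher and 118 lower, of which 621 were among the 935. The part of sex marks in the other results was not tested beyond these fits.

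Transcript length moved with the contrast. The transcribed length was known for 99.2% of the tested genes, from the exons of GENCODE vM21. Its median was 2778 bases for the higher side, 7895 bases for the lower, and 4507 bases for all genes tested. With the genes in 5 classes of equal size by length, 13.9% of the shortest class passed higher and 0.369% lower, and 2.31% and 4.8% of the longest. Between libraries, the level of the longest relative to the shortest class was 0.17 to 0.31 (log2) in PbWT UUO and -0.26 to -0.00 in PbKO UUO, without overlap, and -0.28 to 0.13 in CL kidneys. With this trend removed in each library 645 genes passed, 534 higher and 111 lower, and 583 of them were among the 935. The number of proximal tubule calls went from 18 to 17, that of the PDGF family from 3 to 1, of the matrix panel from 5 to 3, and of the basement membrane from 5 to 1. Whether length is the cause of any value was not tested.

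**Figure D5:**
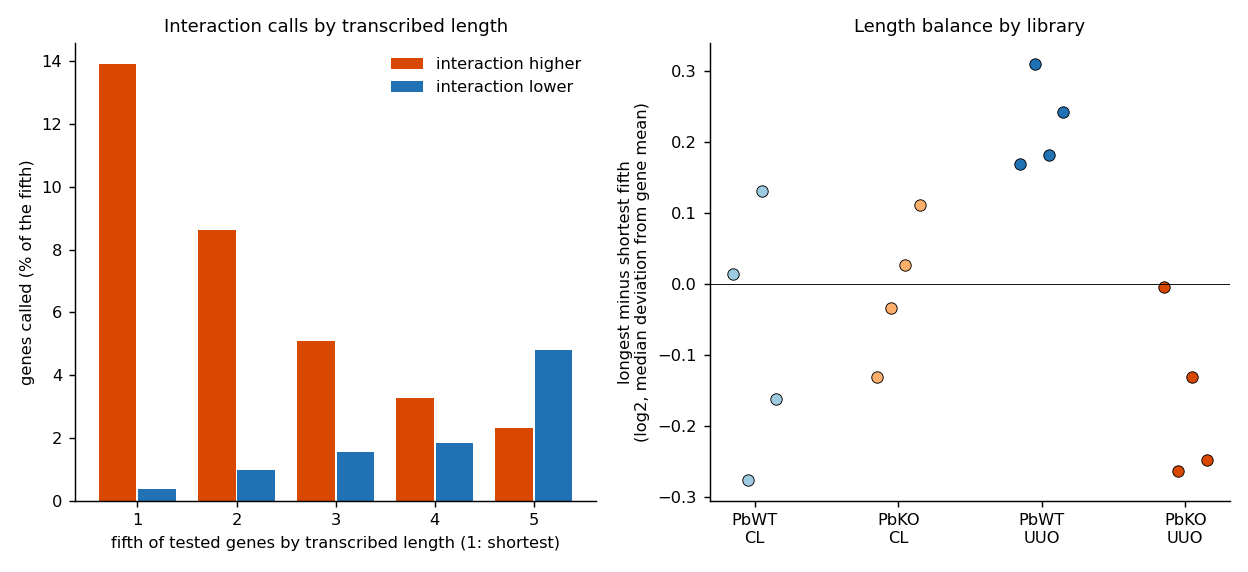
Left, share of tested genes that passed higher or lower in the interaction for 5 classes of equal size by transcribed length (bars, percent of the genes in each class); right, for each library, the median deviation from the gene mean in the longest class minus that in the shortest class (log2). Calls on the higher side fall from 13.9% in the shortest to 2.31% in the longest class, and the 4 PbWT UUO libraries, at 0.17 to 0.31, lie above the others.

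The same contrast was computed in the other arms, each fitted alone. Treatment with ABTAA, an antibody that activates the endothelial receptor TIE2, against IgG passed 0 of 9579 genes by edgeR, with 315 at an unadjusted p under 0.05, and endothelial deletion of *Veptp* passed 0 of 11916, with 324. Among the 45 libraries whose titles take the same form, 1 fit of all arms over 11592 genes gave 593 calls (5.12%) in the *Pdgfb* arm, 473 higher (4.08%) and 120 lower (1.04%), 0 in the ABTAA arm, and 3 (0.0259%) in the *Veptp* arm, *C3*, *Clu*, and *Fn1*, all lower.

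In that fit the contrast of the *Pdgfb* arm was tested against each of the others. By edgeR 0 genes differed from ABTAA and 0 from *Veptp*, with 610 and 574 at an unadjusted p under 0.05, and DESeq2 called 0 and 0, with 465 and 383. *Ces1d* differed from the ABTAA arm by 2.40 ± 0.61 (adjusted p = 0.499) and from the *Veptp* arm by 2.08 ± 0.66 (adjusted p = 0.915). No gene was therefore shown to differ between the arms in this contrast.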

How the data were processed

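Whole-kidney RNA was sequenced by a Smart-seq3 protocol, with each sample run in 4 wells and the wells merged. Per the labels and the submitters' processing notes, the authors mapped reads to mm10 with STAR 2.7.3a, removed duplicates by molecular identifiers with UMI-tools 1.1.4, and counted reads on genes with featureCounts (Subread 1.4.6-p5). For the annotation release and the strand setting, the sources used here give no entry. The deposited values are whole-number counts per gene without normalization, 32245 genes by 75 libraries, of which 0 columns had no sample.

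The 16 libraries were fitted in 1 model with edgeR 4.0.16 in R 4.3.3 (TMM normalization, filterByExpr, glmQLFit without legacy dispersions, glmQLFTest, two-sided), with Benjamini-Hochberg adjustment over the 10923 genes tested and a threshold of 0.05. The study's exact test cannot test an interaction. SE is the log2 value divided by the square root of F. Alternatives used limma 3.58.1 and DESeq2 1.42.0. Lengths, promoter motifs, and figures used Python 3.11.15, numpy 2.4.6, pandas 2.3.3, and matplotlib 3.10.9. The UUO index used log2(CPM + 1). Within each group, all pairs of replicates differed beyond sampling noise (pairs across groups were not compared), with a chi-square per degree of freedom of 1.62 to 7.07 over genes with at least 10 counts in the pair.

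The fit was tested on simulated data for this interaction. Of 68 genes given a log2 interaction of 0.5, 1.47% passed, of 66 given 1, 16.7%, and of 65 given 2, 78.5%. All of these were in the right direction, with 4 false calls among 10382 unchanged genes of 10581. Few genes were changed, so the adjustment was stricter than with the calls of the real fit. The simulated libraries had no length trend and did not differ in sex marks, so these shares say nothing about either.

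Named genes were the PDGF family, the 12 of lowest p in each direction with a mean of at least 10 CPM, up to 3 members of lowest p from each gene list, the sex marks, and *Gm42418* and *AY036118*; list members named beyond these because a count or a pattern turned on them, and *Hnf4a*, *Aqp2*, *Fxyd4*, *Col1a1*, *Col3a1*, *Acta2*, *Col4a3*, *Col4a4*, *Havcr1*, and *Lcn2*, were chosen after their values were seen. The members, lists, and rules were chosen with earlier results of these data known. Settings added after seeing the data were the Y chromosome genes alone or with *Xist* as covariates, leaving out the PbWT libraries with both marks, removing the length trend, and DESeq2 between arms.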

Additional observations from a re-analysis of the deposited data

Results flagged for a closer look

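The interaction itself is a difference between the genotypes' responses, tested in the same fit: 935 genes passed. *Xist* and Y chromosome genes, used here as a property of each library beside their place in a gene list, both reached 10 counts in 8 of the 16 libraries. In the other arms this held for 14 of 29 libraries whose titles take the same form and for 2 of 30 with the other form.

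A library that stood apart from the other 3 of its group was found for 15 of 167 groups of values checked, where chance alone flags about 1 in 20. In PbKO UUO, replicate 1, the shallowest library, was high for *Kap* (about 17410 CPM), *mt-Nd3* (1946 CPM), and *Ndufb5* (449 CPM), and replicate 4 was high for *Pvalb* (93.2 CPM) and low for *Ces1d* (204 CPM). In PbWT UUO, replicate 4 was high for *Mrc1* (71.9 CPM) and *Pdgfrb* (68.9 CPM), and replicate 1 low for *Slc3a1* (285 CPM). In PbKO CL, replicate 3 was high for *Pdgfb* (25.4 CPM) and *mt-Nd3* (1958 CPM), replicate 2 high for *Ndufb5* (497 CPM) and *Pdzk1* (1519 CPM), replicate 1 low for *Adamts1* (49.5 CPM), and replicate 4 low for *Kap* (7182 CPM) and high for *Havcr1* (55.9 CPM).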

How the results depend on the processing

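The count of 935 genes in the genotype-by-obstruction interaction was 10 with all 12 groups in 1 fit, 188 after thinning to the shallowest library, 283 without the 4 PbWT libraries that held both sex marks (262 of them among the 935), and 502 with a log2 difference of at least 1. The causes of these changes were not tested. Thinned libraries hold fewer counts, and a fit with libraries left out holds fewer samples. No fit left out 4 other libraries, so the 283 cannot be split between fewer samples and the sex marks. Under the other settings it lay between 645, with the length trend removed, and 1288, with limma-voom. Leaving out 1 library gave 650 (without PbKO CL replicate 4) to 1092 (without PbKO CL replicate 1). Between arms the counts ranged from 0 to 0 against ABTAA and from 0 to 1 against *Veptp* when 1 library was left out, the 1 without PbWT CL replicate 1. Of 65 named genes that passed, 65 kept their sign in every setting that gave them a value; 3 still passed in the 12-group fit, 26 after thinning, 41 without the 4 PbWT libraries, and 60 without TMM. Genes that passed in neither setting were not counted as changing direction. No paired analysis was possible because no label ties a CL kidney to the UUO kidney of the same mouse and replicate numbers follow accession order. Depth limits genes of low level: the shallowest PbKO UUO library held 337545 counts, so that 1 CPM is under 1 read there.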
